A study of Mus musculus with 19 samples.

Results

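The genes described here are 44 components of the machinery that copies DNA, followed through 7 blood cell populations of the mouse bone marrow. They were chosen by name and not by a filter on their values, though with earlier results of these data known. They comprise the 6 MCM helicase subunits, 6 subunits of the origin recognition complex, 3 licensing factors and 6 helicase activators. A further 4 are subunits of DNA polymerase alpha with primase, 5 of polymerases delta and epsilon and 6 of the sliding clamp and its loader. The rest are 3 subunits of replication protein A, 2 enzymes that finish Okazaki fragments and 3 that supply deoxynucleotides. All 44 had a probe among the 38391 features of the array, and all 44 were well above background on all 19 arrays, so none entered a comparison through 1 group alone. Each gene is represented by its brightest probe.

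Each sample was total RNA of sorted marrow cells from adult C57BL/6 mice, 8 to 12 weeks old, on 1 single-colour custom array, and no genotype or treatment is named in the labels. LSK cells (lineage-negative, Kit and Sca1 positive, 3 arrays) hold the stem and multipotent cells. Lineage-negative, Kit-positive cells without Sca1 were split into common myeloid progenitors (CMP, CD16/32 low and CD34 high, 3 arrays), megakaryocyte-erythroid progenitors (MEP, low for both, 3 arrays) and granulocyte-macrophage progenitors (GMP, high for both, 2 arrays). Ter119-positive cells were sorted into early erythroblasts (high scatter and CD44, 2 arrays) and late erythroblasts (low scatter, intermediate CD44, 3 arrays), and granulocytes were taken as Gr1-positive cells (3 arrays). The labels do not say that replicates came from separate animals, so p-values measure the spread between these samples only, which may be technical.

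DNA replication starts at origins bound by the origin recognition complex, where CDC6 and CDT1 load the ring of 6 MCM proteins in G1. CDC45 and the GINS complex turn the loaded ring into the active helicase in S phase, polymerase alpha with primase lays down primers, and polymerases epsilon and delta extend the leading and lagging strands on the PCNA clamp. Many of these genes are transcribed at the start of S phase under E2F factors. In the marrow, progenitors and early erythroblasts divide rapidly, while late erythroblasts condense their nuclei and granulocytes leave the cell cycle.

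Levels are log2 values relative to the 75th percentile of each array, so they describe a gene's place in the composition of the RNA and not its amount per cell. That percentile was 50.1 to 81.3 intensity units on the 5 arrays of erythroblasts, against 266 to 607 for the other 14, so a scale that removes this difference and one that keeps it can disagree. The sorted populations carried their own markers at the highest summed level for LSK, GMP, erythroblast and granulocyte genes. The exception was the erythroid regulator list (Gata1, Klf1 and Epor), which was highest in early erythroblasts and summed to 82.1 to 124 multiples of the 75th percentile in MEP, against 62.3 to 101 in CMP. A sum can hide single markers. The LSK list summed to 51.7 to 52.3 in granulocytes, against 42.1 to 46.5 in CMP. Of that list, Ly6a was higher in GMP than in CMP (3.37) and in granulocytes than in GMP (2.31). Procr, Meis1 and Flt3 were lower in both of these comparisons. In bulk samples, fewer cells of a type and less RNA per cell cannot be told apart.

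The promoters of the members hold the words that E2F factors and NF-Y are known to bind more often than those of all genes of the RefSeq table. RefSeq promoter windows (250 bases before to 50 after the start, build GRCm38.p6) matched 36 of the 44 genes; Mcm4, Gmnn, Gins1, Gins2, Gins4, Prim2, Pole and Rfc2 were not matched. An E2F word (TTTCCCGC, TTTGGCGC, TTTCGCGC or TTTGCCGC, on either strand) stood in 14 of 36 members, or 38.9%, against 2.32% of the 27025 genes of the table. CCAAT, on either strand, stood in 22 of 36, or 61.1%, against 37.9% of all genes. Of 31 further replication genes, listed apart from the members, 22.6% held an E2F word and 38.7% CCAAT. Of 21 mitosis genes, 4.76% held an E2F word and 85.7% CCAAT, a larger share than of the members. Matches may overlap; in the sequences printed, only the 2 neighbouring E2F words of Mcm6 do. The 150 bases before the start are printed for 4 genes whose behaviour in erythroblasts differs, 5′ to 3′ on the strand of the gene, with both kinds of word in capitals. Orc1, at chr4:108579304-108579453 (+ strand), holds 1 E2F word and 2 CCAAT words and rose most of its complex in early erythroblasts against MEP on the percentile scale. Rrm2, at chr12:24708104-24708253 (+ strand), holds a CCAAT word and no E2F word and rose most of all members there. Mcm6, at chr1:128359706-128359855 (- strand), holds 3 E2F words and 2 CCAAT words and did not pass that test. Gins3, at chr8:95633409-95633558 (+ strand), holds 1 E2F word and 2 CCAAT words and fell there. A word is a match of letters and not a binding site.
Orc1: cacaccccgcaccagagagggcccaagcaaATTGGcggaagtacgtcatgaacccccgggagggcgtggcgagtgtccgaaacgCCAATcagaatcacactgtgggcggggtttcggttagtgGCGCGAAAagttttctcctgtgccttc
Rrm2: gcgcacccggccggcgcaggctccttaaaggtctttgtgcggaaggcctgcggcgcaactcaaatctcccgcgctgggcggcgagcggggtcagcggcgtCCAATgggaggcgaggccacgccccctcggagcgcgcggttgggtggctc
Mcm6: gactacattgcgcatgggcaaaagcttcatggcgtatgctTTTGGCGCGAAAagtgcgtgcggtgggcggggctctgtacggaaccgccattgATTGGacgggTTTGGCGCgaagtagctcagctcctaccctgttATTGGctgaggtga
Gins3: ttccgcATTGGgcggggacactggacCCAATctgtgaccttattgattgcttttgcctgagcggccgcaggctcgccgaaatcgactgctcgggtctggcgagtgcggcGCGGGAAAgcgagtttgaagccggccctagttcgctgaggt

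Across the 7 populations, on the percentile scale, the members were high in CMP and GMP, highest in early erythroblasts and low in LSK cells and at both mature ends, while on the spike-in scale they were highest in CMP and lowest in late erythroblasts. When each gene was centred on its mean over the 7 populations, the median of the 44 was -0.44 ± 0.03 in LSK cells, 0.466 ± 0.00459 in CMP and 0.16 ± 0.08 in MEP (SD, n = 3 arrays each). It was 0.93 ± 0.08 in early erythroblasts (n = 2) and -0.53 ± 0.13 in late erythroblasts (n = 3), and on the other branch 0.48 ± 0.04 in GMP (n = 2) and -0.94 ± 0.04 in granulocytes (n = 3). The highest mean lay in early erythroblasts for 26 members, in GMP for 10, in CMP for 6 and in MEP for 2. The lowest lay in granulocytes for 24, in late erythroblasts for 15 and in LSK cells for 5. The spread between arrays of a group was small against this for the median member: the median SD over members ran from 0.06 in granulocytes to 0.17 in late erythroblasts. Single members spread more, and the highest SD of a member ran from 0.24 in granulocytes to 0.56 in GMP and 0.62 in late erythroblasts. Over the 7 means, members spanned 1.35 to 5.51 on the log2 scale, with a median of 2.11. Scaled on the spike-in control probes instead, the highest mean lay in CMP for 38 members and in early erythroblasts for 1, and the lowest in late erythroblasts for all 44. The members' centred median was then -1.22 ± 0.59 in early erythroblasts and 1.79 ± 0.19 in CMP (SD), and its SD over the LSK arrays was 0.98, against 0.03 on the percentile scale. All 44 passed limma's moderated F test over the 7 populations, as did 95.6% of the 26224 features tested.

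**Figure D1:**
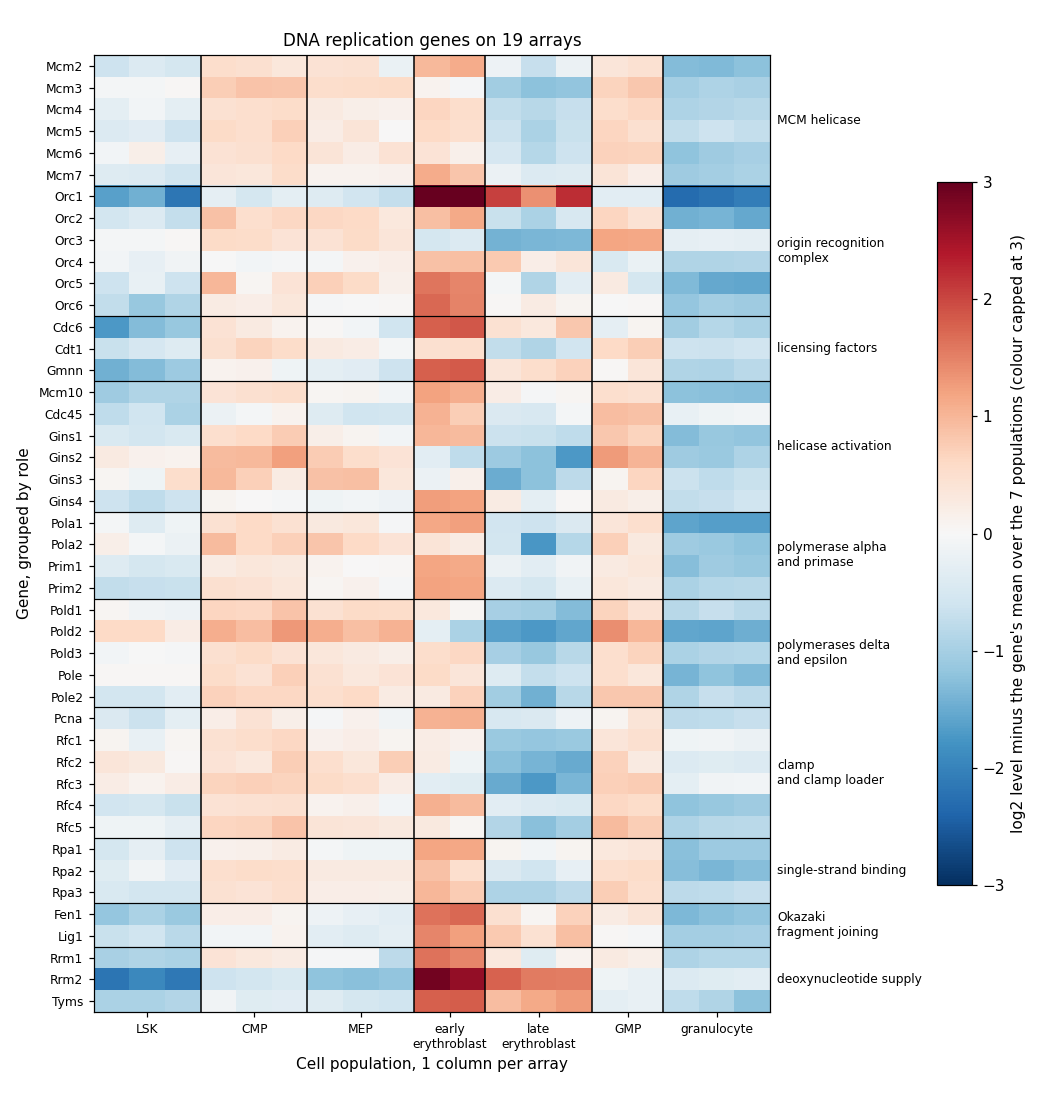
Each row is a gene and each column an array; colour gives the log2 level minus the gene's mean over the 7 populations. Most rows are reddest on the 2 early erythroblast arrays and bluest on late erythroblast or granulocyte arrays, while 18 genes, Orc3, Gins2, Pold2, Rfc2 and Rfc3 among them, have their highest mean in a progenitor population. On the spike-in scale the members are highest in CMP for 38 of 44.

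**Figure D2:**
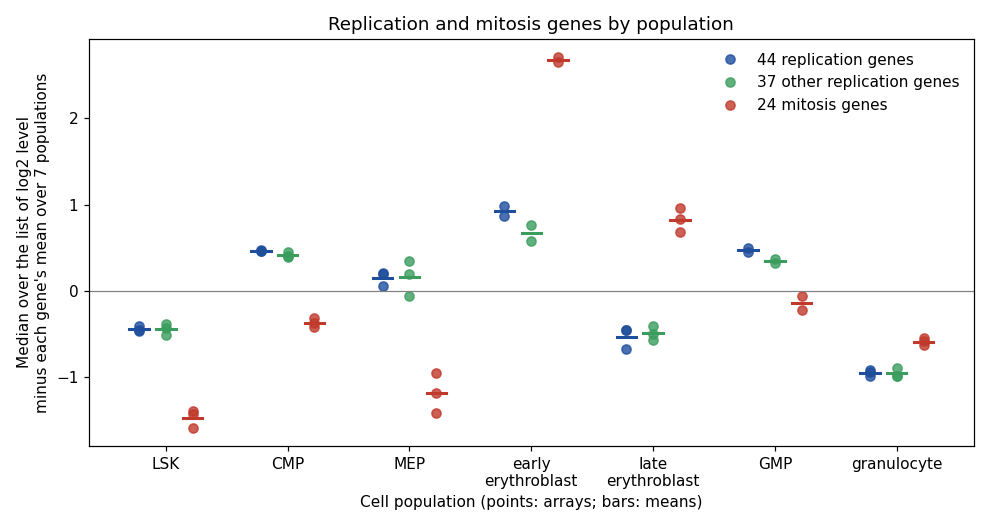
Points are arrays and bars are means; each point is the median over a list of the centred log2 levels. The 44 replication genes peak in early erythroblasts at 0.93 on the percentile scale, like 37 other replication genes at 0.67, while 24 mitosis genes reach 2.68 there and are also above their mean in late erythroblasts (0.83). On the spike-in scale the 44 genes are at -1.22 in early erythroblasts.

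Leaving the stem and multipotent compartment, nearly the whole set was higher. Of the 44 members, 41 were higher in CMP than in LSK cells and 0 were lower in limma's test at an adjusted p of 0.05, where 23.0% of the 24182 features tested were higher and 13.3% lower. The median difference was 0.81 for the members and 0.17 for all features. On 41 members the CMP and LSK arrays did not overlap, as on 52.1% of all features. With the spike-in probes as the scale the median difference was 1.18 and 4 members passed.

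Taken on the brightest probe of each gene, the largest difference was in licensing. Cdc6, which with CDT1 loads the helicase, stood at 2.61, 2.44 and 2.28 on the CMP arrays and at 0.45, 0.87 and 1.04 on the LSK arrays. Every CMP array was above every LSK array, and the difference was 1.66 ± 0.19 (SE; 3.16-fold; limma adjusted p = 1.13e-05). The second probe of Cdc6 differed by 1.22, less than Rrm2 (1.54) and Mcm10 (1.43), among others. Gmnn, which encodes geminin, the inhibitor of CDT1, was higher by 1.31 and Cdt1 by 1.08. Among the activators, Mcm10, a scaffold of the firing helicase, stood at 4.57, 4.63 and 4.67 in CMP and 3.09, 3.24 and 3.26 in LSK cells, higher by 1.43 ± 0.10 (limma adjusted p = 9.13e-08). Gins1 was higher by 1.12, Gins2 by 0.89, Cdc45 by 0.73 and Gins4 by 0.68.

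Rrm2, the small subunit of ribonucleotide reductase that limits deoxynucleotide supply in S phase, stood at 5.19, 5.26 and 5.35 in CMP and 3.63, 3.87 and 3.68 in LSK cells. It was higher by 1.54 ± 0.11 (limma adjusted p = 9.77e-08), and its partner Rrm1 by 1.26. The thymidylate synthase gene Tyms was higher by 0.65. The 6 MCM genes were higher by 0.55 (Mcm6) to 1.05 (Mcm5). Of the origin recognition complex, Orc1 was higher by 1.39, Orc2 by 1.22, Orc6 by 1.19, Orc5 by 0.97 and Orc3 by 0.54.

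All 9 polymerase and primase subunits were higher, among them Pole, the catalytic subunit of polymerase epsilon, by 0.53, its partner Pole2 by 1.11 and the primase subunit Prim2 by 1.11. The clamp gene Pcna was higher by 0.72, the loader genes Rfc4, Rfc5, Rfc1 and Rfc3 by 1.04, 0.90, 0.56 and 0.49, and the 3 genes of the single-strand binding protein RPA by 0.64 to 0.98. The flap endonuclease gene Fen1 was higher by 1.23 and the DNA ligase gene Lig1 by 0.68. The other 3 members did not pass: Gins3 differed by 0.49 (95% interval -0.04 to 1.02), Rfc2 by 0.25 (-0.10 to 0.60) and Orc4 by 0.10 (-0.19 to 0.40).

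Of 37 further replication genes, 27 were higher and 1 lower in CMP, led by the helicase gene Recql4 (1.97), the thymidine kinase gene Tk1 (1.53), the dUTPase gene Dut (1.40) and Pole3 (1.28). Of 24 mitosis genes, 21 were higher and 0 lower. With spike-in scaling 2 of the further replication genes and 3 of the mitosis genes were called, all higher. On slides that held both populations, the members' median difference was 0.85 and 0.89, against 0.14 and 0.17 for all features. Granulocyte markers moved with this comparison: 6 of 6 were detected on all arrays of CMP and LSK cells, and their summed level was 35.3 to 65.8 in CMP and 314 to 400 in LSK cells. Of the T and NK markers, 3 of 6 were lower in CMP, and of the macrophage markers 4 of 7 tested, with 0 higher in either list. The part of these markers in the result was not tested.

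Few members passed between the branch progenitors and CMP. In MEP, 5 members were lower than in CMP and 0 higher (2.47% and 1.72% of the 22842 features tested), with a median difference of -0.27, against -0.03 for all features. The arrays did not overlap for 33 members, against 27.1% of all features. Of the macrophage markers, Adgre1 (-1.81), Mrc1 (-1.53) and Vcam1 (-1.22) were lower in MEP than in CMP. Of the T and NK markers, Cd3g (2.06) and Lck (0.84) were higher. The rest of both lists and the granulocyte markers were not called between MEP and CMP. In GMP, 3 members were higher than in CMP and 0 lower (9.22% and 8.31% of 22812 features), with a median of 0.02 that was below 0 with normexp correction, quantile or spike-in scaling, the detected-probe percentile and slide as a block, and 12 did not overlap (49.8% of all features). Granulocyte markers summed to 366 to 477 in GMP and 35.3 to 65.8 in CMP, with 6 of 6 higher in GMP (Cebpe by 4.02, Ltf by 2.96). Macrophage markers summed to 9.24 to 9.35 in GMP and 1.42 to 1.78 in CMP, with Vcam1 (3.53) and Adgre1 (2.79) higher and the other 5 tested not called. T and NK markers went both ways: Nkg7 was higher in GMP (2.33), Lck (-1.25) and Klrd1 (-1.95) were lower, and their sum of 128 to 191 in GMP and 32.9 to 41.5 in CMP does not show the 2 that were lower. The part of these lists in the result was not tested. The 5 calls in MEP are near the limit of the test: leaving out 1 array left 1 call (without CMP replicate 3), 2 (without CMP replicate 2 or MEP replicate 3), 3 (without MEP replicate 1 or 2) or 4 (without CMP replicate 1). A fit on the 6 CMP and MEP arrays alone called 0 members and normexp background correction called 15, all lower.

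Rrm2 was the largest change in MEP, at 4.59, 4.57 and 4.62 in MEP and 5.19, 5.26 and 5.35 in CMP, lower (log2 difference -0.67) with no overlap (SE 0.11; limma adjusted p = 0.00433). The helicase activators Gins1 (-0.56) and Mcm10 (-0.45) and the clamp loader subunits Rfc1 (-0.40) and Rfc4 (-0.39) were the other calls. In GMP, Rrm2 was higher than in CMP by 0.38 (limma adjusted p = 0.042), a call lost when any 1 array of either group was left out. Cdc45, which joins the MCM ring to make the active helicase, stood at 1.38 and 1.32 in GMP and 0.26, 0.39 and 0.54 in CMP. That is higher by 0.95 ± 0.15 (limma adjusted p = 4.50e-04). Orc3, an origin recognition subunit, stood at 4.43 and 4.41 in GMP and 3.83, 3.82 and 3.67 in CMP, higher by 0.64 ± 0.10 (limma adjusted p = 3.79e-04).

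Set against each other, MEP had 15 members lower than GMP and 1 higher (18.1% and 13.2% of 21938 features), with a median of -0.30; with spike-in scaling the median was 0.41 and 0 members passed. The arrays of 32 members did not overlap, against 57.6% of all features. Cdc45 stood at 0.06, -0.15 and -0.11 in MEP and 1.38 and 1.32 in GMP, a difference of -1.42 ± 0.15 (limma adjusted p = 6.19e-06). Rrm2 followed with -1.05, Orc3 with -0.71, Gins1 with -0.68, Gmnn with -0.61, Gins2 with -0.58, Fen1 with -0.55, Rfc4 and Cdt1 with -0.52 each, Rfc5 with -0.49, Mcm10 with -0.46, Rpa1 with -0.44, Rpa3 with -0.43, Mcm4 with -0.39 and Pold3 with -0.33. Orc4 was the member higher in MEP, at -0.63, -0.44 and -0.36 in MEP and -1.03 and -0.77 in GMP, by 0.43 (limma adjusted p = 0.0481). Its second probe differed by 0.11, and the call was lost without MEP replicate 2 or 3 or either GMP array. Without GMP replicate 2 the number of calls was 9. T and NK markers were well above background on every array for 6 of 6 genes in MEP and 5 of 6 in GMP (Cd3g on no GMP array), and 4 of them were higher in MEP: Cd3g (2.69), Klrd1 (2.13), Lck (2.09) and Cd3d (1.16). Nkg7 was lower (-1.94), and the summed level was 40.9 to 56.2 in MEP and 128 to 191 in GMP. Granulocyte markers summed to 25.6 to 50.8 in MEP and 366 to 477 in GMP, with 6 of 6 lower in MEP. Of 5 macrophage markers tested, 3 were lower in MEP, Vcam1 (-4.75), Adgre1 (-4.60) and Mrc1 (-2.37). The part of these lists in the result was not tested.

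Mitosis genes were low in MEP. MEP had lower levels of 19 of 24 than CMP, with a median difference of -0.76, and of 21 of 23 tested than GMP, with a median of -1.07. Kif23 (-1.03) and Nusap1 (-0.95) led against CMP, and the cyclin gene Ccnb1 (-1.29) and the spindle kinase gene Ttk (-1.28) against GMP. Of the 37 further replication genes, MEP had less of 3 than CMP, namely Tk1 (-0.83), the histone chaperone gene Asf1b (-0.52) and Ticrr (-0.51), which links CDC45 loading to the cyclin-dependent kinases. Against GMP, 9 were lower and 1 higher. With spike-in scaling neither list had a call in either comparison; the mitosis medians were -0.74 against CMP and -0.36 against GMP, and that of the further replication genes against GMP was 0.47. Between GMP and CMP neither list had a call in limma's test; at an unadjusted p under 0.05, 4 of the further replication genes and 4 of the mitosis genes differed.

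On the percentile scale early erythroblasts had more RNA for nucleotide supply, licensing and fragment joining than MEP and less for single subunits of the origin, GINS, polymerase delta and clamp loader complexes. Of the 44 members, 30 were higher in early erythroblasts than in MEP and 8 lower on the percentile scale, against 43.5% and 37.7% of the 22791 features tested, while on the spike-in scale 0 were higher and 40 lower. The median difference was 0.81 for members and 0.23 for all features on the percentile scale, and -2.68 for members and -3.27 for all features on the spike-in scale. The members stood above the median feature by 0.588 on the first scale and 0.589 on the second. Both scales take 1 value off each array, so this gap is alike by construction and the second adds no evidence. With no filter on dim probes the members' median of 0.81 was below the 1.23 of all features. With normexp background correction, whose offset of 50 is near the 75th percentile of the erythroblast arrays, the split was 20 higher and 17 lower and the median 0.21, below the 0.55 of all features. The arrays of 39 members did not overlap, against 86.1% of all features.

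On the percentile scale the 3 deoxynucleotide enzymes rose, and on the spike-in scale none did, with 0.48 for Rrm2 (not called), -1.19 for Tyms (not called) and -1.67 for Rrm1. Rrm2 stood at 8.70 and 8.46 in early erythroblasts and 4.59, 4.57 and 4.62 in MEP, higher by 3.98 ± 0.12 (15.8-fold; limma adjusted p = 9.87e-13). Tyms stood at 1.28 and 1.32 in early erythroblasts and -0.89, -1.04 and -1.11 in MEP, higher by 2.31 ± 0.15. Rrm1 was higher by 1.83 ± 0.21. For all 3 both early erythroblast arrays were above every MEP array.

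On the percentile scale the 3 licensing and both joining genes rose as well, while on the spike-in scale they were between -3.14 (Cdt1) and -1.26 (Gmnn). Gmnn stood at 4.98 and 5.04 in early erythroblasts and 2.90, 2.85 and 2.56 in MEP, a difference of 2.24 ± 0.16. Cdc6 stood at 3.97 and 4.04 in early erythroblasts and 2.20, 2.09 and 1.57 in MEP, a difference of 2.05 ± 0.22, and its second probe differed by 1.59. Cdt1, at 0.35, rose by far less and turned to -0.29 with normexp correction. Fen1 was higher by 1.92 ± 0.15 and Lig1 by 1.67 ± 0.14. On the percentile scale the RPA genes were higher by 1.28 (Rpa1), 0.69 (Rpa3) and 0.43 (Rpa2), the last of which turned to -0.12 with normexp correction.

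**Figure D3:**
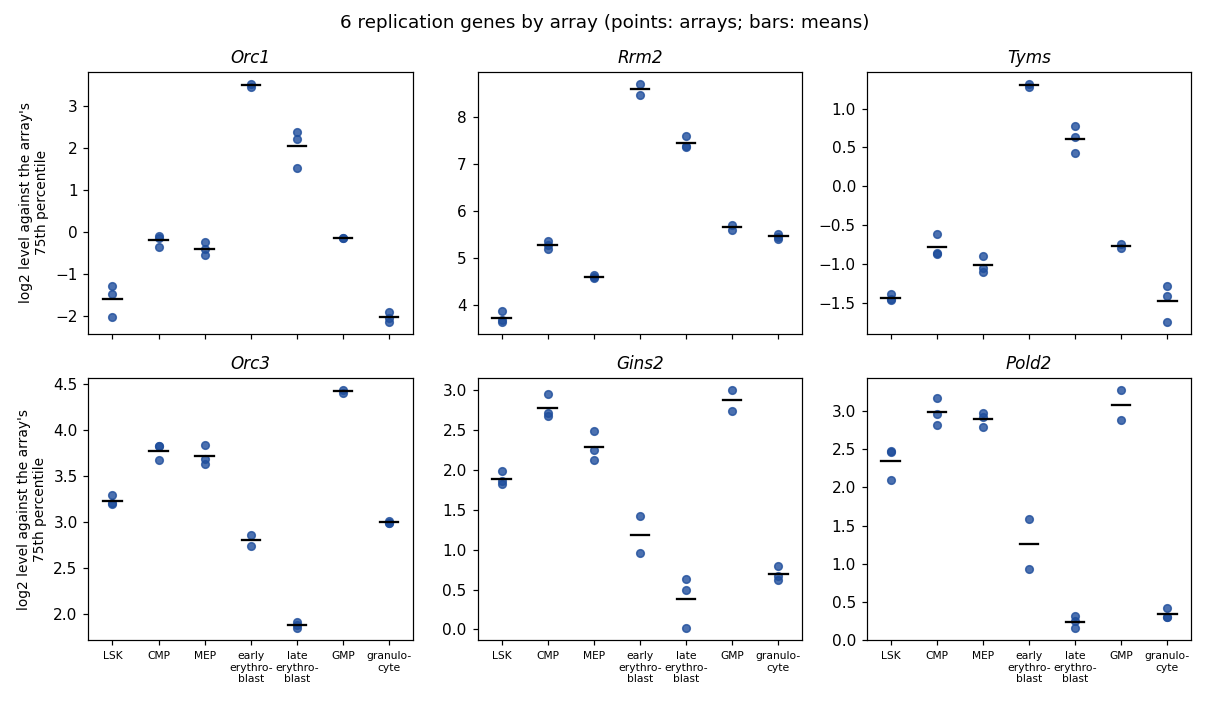
Each panel gives the log2 level of 1 gene against the array's 75th percentile; points are arrays and bars are means. Orc1, Rrm2 and Tyms are highest on the 2 early erythroblast arrays, while Orc3, Gins2 and Pold2 are lower there than on every MEP array. On the spike-in scale Orc1 (0.39) and Rrm2 (0.48) do not pass and Tyms is at -1.19.

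Subunits of 1 complex moved in opposite directions on the percentile scale. Moving between the percentile and spike-in scales shifts all genes of an array alike, so the gaps between subunits stay while their signs do not: on the spike-in scale Orc1 was at 0.39, not called, and every other subunit named below was lower. Orc1, the largest subunit of the origin recognition complex, stood at 3.52 and 3.45 in early erythroblasts and -0.23, -0.41 and -0.55 in MEP, higher by 3.88 ± 0.24 (14.8-fold; limma adjusted p = 1.11e-09). Orc6 was higher by 1.61, Orc5 by 1.05, Orc4 by 0.81 and Orc2 by 0.50. Orc3 went the other way, at 2.73 and 2.86 in early erythroblasts and 3.68, 3.83 and 3.63 in MEP, a difference of -0.92 ± 0.10 (limma adjusted p = 9.99e-07), and its second probe differed by -0.33. In the GINS complex, Gins4 (1.35) and Gins1 (0.92) rose. Gins2 fell, at 1.42 and 0.96 in early erythroblasts and 2.49, 2.24 and 2.13 in MEP, a difference of -1.10 ± 0.19 (limma adjusted p = 8.55e-05), and Gins3 differed by -0.71 ± 0.28. The activators Cdc45 (1.41) and Mcm10 (1.13) rose.

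On the percentile scale polymerase delta was split too. Pold2, its second subunit, had the largest fall of all members, at 1.58 and 0.94 in early erythroblasts and 2.97, 2.79 and 2.92 in MEP (-1.63 ± 0.19; limma adjusted p = 1.42e-06). The catalytic subunit gene Pold1 differed by -0.34 and Pold3 by 0.31, which turned to -0.33 with normexp correction. Pole and Pole2 did not pass, with differences of 0.08 (95% interval -0.20 to 0.36) and 0.04 (-0.34 to 0.42). The second probe of Pole, well above background on 9 arrays only, differed by 0.57. Of polymerase alpha and primase, Prim2 (1.14), Prim1 (1.103) and the catalytic subunit gene Pola1 (0.995) rose, and Pola2 did not pass (-0.29, 95% interval -0.87 to 0.28).

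At the clamp, on the same scale, Pcna stood at 7.71 and 7.74 in early erythroblasts and 6.63, 6.80 and 6.56 in MEP, higher by 1.06 ± 0.15. Its loader was divided between Rfc4, higher by 0.95 on one probe and 0.92 on the other, and Rfc3 (-0.76) and Rfc2 (-0.47), both lower. Rfc1 (0.04) and Rfc5 (-0.18) did not pass. In the MCM ring, Mcm7 (0.85), Mcm2 (0.82), Mcm4 (0.40) and Mcm5 (0.34) were higher, the last pair turning to -0.30 and -0.29 with normexp correction. Mcm3 was lower, at 6.16 and 6.02 in early erythroblasts and 6.58, 6.59 and 6.63 in MEP (-0.51 ± 0.10), and Mcm6 did not pass (-0.06, 95% interval -0.38 to 0.25). A fit on the early erythroblast and MEP arrays alone kept 30 calls, 24 higher and 6 lower, and lost Mcm4, Mcm5, Orc2, Cdt1, Pold1, Pold3, Rfc2 and Rpa2.

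**Figure D4:**
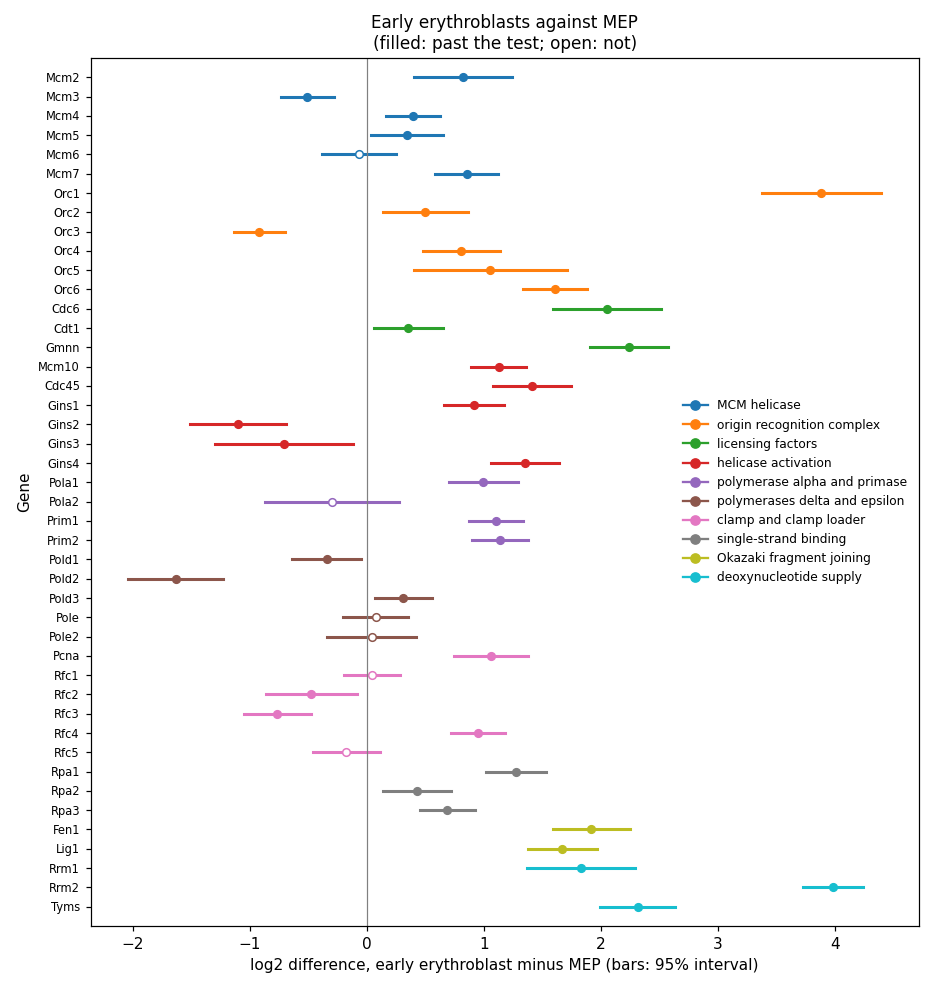
Log2 differences between early erythroblasts and MEP on the 75th percentile scale, with 95% intervals; filled points passed the test. Rrm2 (3.98) and Orc1 (3.88) lie far to the right, Pold2 (-1.63) and Gins2 (-1.10) to the left, and subunits of the ORC, GINS, polymerase delta and clamp loader complexes lie on both sides of 0. On the spike-in scale the median member is at -2.68.

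Set beside the promoters, the rise was not larger for members with an E2F word. Of the 14 members with an E2F word, 7 were higher in early erythroblasts and 5 lower, with a median difference of 0.18. Of the 22 without one, 18 were higher and 1 lower, with a median of 1.06. Among the 4 printed promoters, Orc1 and Gins3 each hold 1 E2F word and 2 CCAAT words and differed by 3.88 and -0.71. Between late and early erythroblasts the medians were -1.30 with and -1.29 without an E2F word, and between granulocytes and GMP -1.37 with and -1.41 without one. These are counts over genes that share their arrays, with no test.

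Of the further replication genes, 18 of 36 tested were higher in early erythroblasts than in MEP and 7 lower on the percentile scale, with a median of 0.45. Asf1b (3.81), Dbf4 (3.66), the activator of the CDC7 kinase, Donson (3.39) and Tk1 (3.35) led. Of the mitosis genes, 23 of 24 were higher and 0 lower, with a median of 3.80, led by Cenpf (5.28) and Mki67 (5.19) on the same scale. With spike-in scaling 0 of the further replication genes were higher and 27 lower (median -3.05), and 5 mitosis genes were higher and 0 lower (median 0.30). With normexp correction the further replication genes divided into 17 higher and 15 lower. On the 1 slide that held both populations the members' median was 0.70, against 0.20 for all features. All 38 called members had the same sign there, but its arrays were part of the test that called them, so this adds no evidence. Macrophage markers were well above background on every array for 7 of 8 genes in early erythroblasts and 3 of 8 in MEP, with summed levels of 5.53 to 6.21 in early erythroblasts and 0.803 to 1.02 in MEP, and Cd163 was on no array of either. Granulocyte markers summed to 101 to 363 in early erythroblasts and 25.6 to 50.8 in MEP, and the part of both lists in the result was not tested.

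In late erythroblasts every member was lower. All 44 were lower than in early erythroblasts (37.2% of 19139 features were lower and 21.7% higher), with a median difference of -1.30, against -0.17 for all features, and the arrays of all 44 did not overlap (67.9% of all features). The direction held on the spike-in scale, where 44 were lower and the median was -2.31, against -1.18 for all features. On the slides that held both stages the median was -1.31 and -1.16, against -0.18 and -0.14 for all features. That all 44 members were lower on each slide follows from the arrays not overlapping and adds no evidence.

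By role, median differences lay between -0.95 for Okazaki fragment joining and -1.47 for polymerase alpha with primase. Orc5 fell most, at -0.42, -1.26 and -0.69 in late and 1.24 and 1.09 in early erythroblasts (-1.96 ± 0.30; 3.88-fold; limma adjusted p = 7.76e-05). Rpa3, the smallest RPA subunit, stood at 3.51, 3.51 and 3.64 in late and 5.43 and 5.20 in early erythroblasts, a difference of -1.76 ± 0.11. Pola1 fell by 1.75, Orc2 by 1.72, Gins1 by 1.66, Pole2 by 1.60 and Prim2 by 1.58 on the log2 scale. The 6 MCM genes fell by 0.95 (Mcm6) to 1.39 (Mcm2) and the 6 clamp and loader genes by 1.20 (Rfc3) to 1.45 (Rfc2).

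The 3 smallest falls were those of Orc4, Lig1 and Tyms. Orc4 stood at 0.21, -0.37 and -0.20 in late and 0.33 and 0.34 in early erythroblasts (-0.45 ± 0.15; limma adjusted p = 0.0203); its second probe differed by -0.10, and the call was lost when either early erythroblast array, or late replicate 2 or 3, was left out. Lig1 stood at 6.91, 6.58 and 7.03 in late and 7.58 and 7.34 in early erythroblasts (-0.62), and Tyms at 0.43, 0.64 and 0.77 in late and 1.28 and 1.32 in early erythroblasts (-0.69). Gins2, which had already fallen, differed by -0.81. Rrm2 fell to 7.58, 7.37 and 7.35 in late erythroblasts, against 8.70 and 8.46 in early ones, all above the MEP arrays on this scale.

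Of the further replication genes, 31 of 36 tested were lower and 1 higher in late erythroblasts, led by Dbf4 (-2.10), Ticrr (-1.91), the checkpoint mediator gene Clspn (-1.64) and Atad5 (-1.60), which unloads PCNA. Of the mitosis genes, 22 of 24 were lower and 0 higher, with a median of -1.86, led by Ttk (-2.22) and Kif23 (-2.12). Granulocyte markers summed to 490 to 530 in late and 101 to 363 in early erythroblasts, and macrophage markers to 7.84 to 14.1 in late and 5.53 to 6.21 in early ones. For both lists the part in the result was not tested.

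Granulocytes had lower levels than GMP for nearly the whole set. Of the 44 members, 43 were lower in granulocytes than in GMP and 0 higher (38.7% and 27.5% of 22950 features), with a median of -1.39, against -0.19 for all features. The arrays of all 44 did not overlap, against 83.9% of all features. On the spike-in scale the median was -0.98, against 0.22 for all features, and 4 members passed. No slide held both populations, so no within-slide value can be given.

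Pold2 fell most, at 0.31, 0.30 and 0.42 in granulocytes and 3.27 and 2.88 in GMP (-2.73 ± 0.19; 6.65-fold; limma adjusted p = 1.70e-08). Gins2 stood at 0.67, 0.62 and 0.80 in granulocytes and 3.00 and 2.74 in GMP (-2.18 ± 0.19). Pola1 stood at 1.67, 1.62 and 1.62 in granulocytes and 3.64 and 3.78 in GMP (-2.07 ± 0.14). Orc2 differed by -2.00, Gins1 by -1.94, Orc1 by -1.88, Rpa2 by -1.84 and Mcm6 by -1.76. The MCM genes differed by -1.76 to -1.26, and the role medians ran from -1.60 for polymerases delta and epsilon to -0.72 for deoxynucleotide supply.

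Rrm2 was the exception. It stood at 5.40, 5.45 and 5.50 in granulocytes and 5.69 and 5.60 in GMP, without overlap, but the difference of -0.19 ± 0.12 (95% interval -0.45 to 0.06) did not pass limma's test (adjusted p = 0.169). Granulocyte levels of Rrm2 lay 1.72 above those of LSK cells. The next smallest differences were those of Orc4 (-0.56), Rfc1 (-0.56) and Tyms (-0.72). Cdc6 differed by -0.85 on its brighter probe and by -1.82 on the other.

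**Figure D5:**
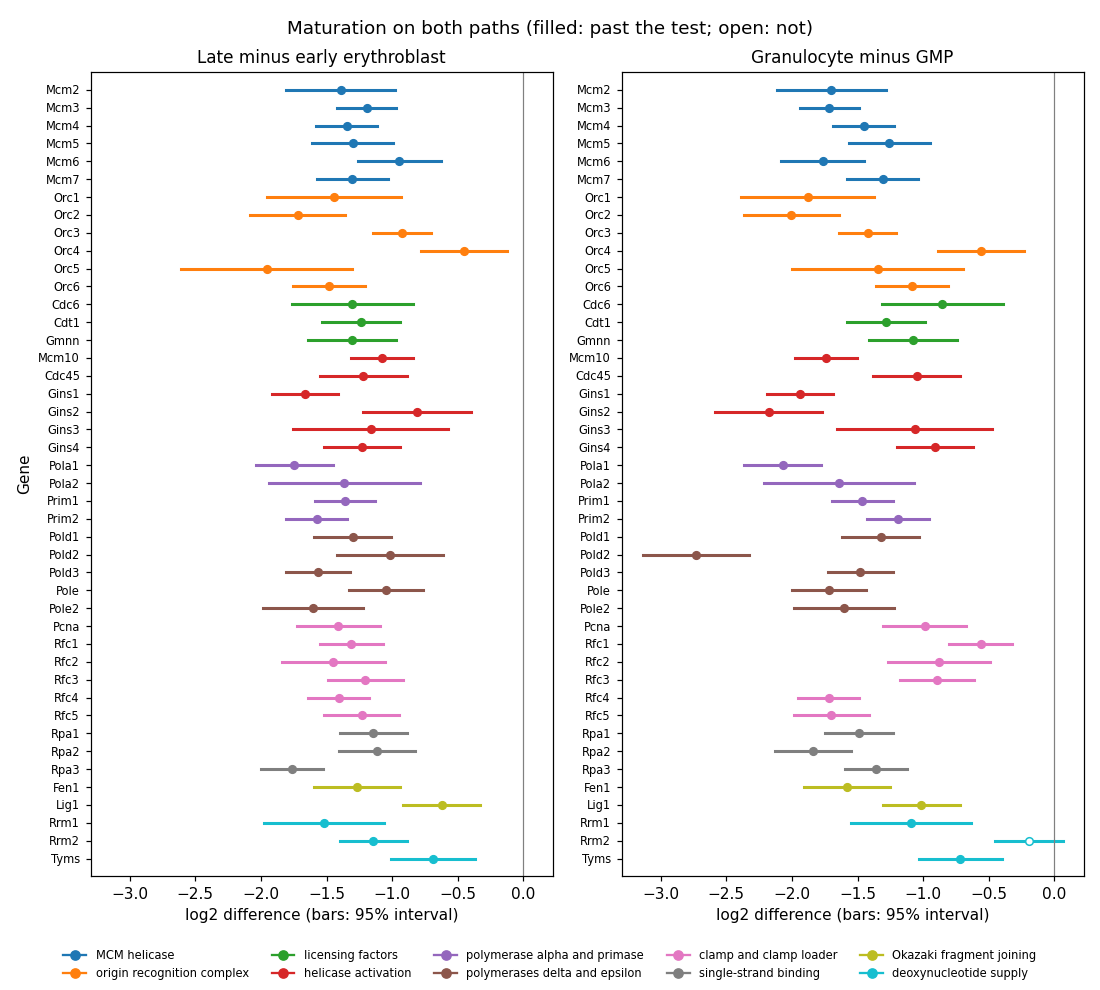
Log2 differences of the 44 genes with 95% intervals, late minus early erythroblasts on the left and granulocytes minus GMP on the right; filled points passed the test. Every point on the left is below 0, and on the right every point is below 0 and only Rrm2 (-0.19) did not pass.

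Among the further replication genes, 28 of 37 were lower in granulocytes than in GMP and 3 higher. Rnaseh2a (-2.25), which helps remove RNA primers, Mcm8 (-2.25), Recql4 (-2.21) and Timeless (-2.19), of the fork protection complex, led. Of the mitosis genes, 8 of 24 were lower and 0 higher, with a median of -0.36, led by Ttk (-0.99) and Ccnb1 (-0.92). With spike-in scaling 2 of the further replication genes were higher and 5 lower, and 0 mitosis genes were called (median 0.05). Macrophage markers were well above background on every array for 7 of 8 in granulocytes and 5 of 8 in GMP, summing to 73.2 to 74.4 in granulocytes and 9.24 to 9.35 in GMP, with Cd163 on no GMP array. Erythroblast markers summed to 578 to 622 in granulocytes and 8.08 to 11.6 in GMP. Of the T and NK markers, 5 were higher and 1 lower in granulocytes. The part of these markers in the result was not tested.

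The mature ends of both paths were then set against each other. On the percentile scale 26 members were higher in late erythroblasts than in granulocytes and 5 lower (38.6% and 43.7% of 23078 features), but 0 were higher and 43 lower on the spike-in scale. The median was 0.60 on the first scale, against -0.12 for all features, and -3.61 on the second, against -4.33 for all features. The gap to all features is alike on these 2 scales by construction. With normexp correction the members' median of -0.093 was below the 0.45 of all features. With no filter on dim probes 0.60 for the members was below 1.36 for all features. Normexp correction gave 16 higher and 18 lower, and the arrays of 34 members did not overlap (86.5% of all features). Orc1 differed most, at 2.21, 1.53 and 2.38 in late erythroblasts and -2.14, -2.04 and -1.90 in granulocytes (4.07 ± 0.21; limma adjusted p = 1.52e-10). Tyms (2.09), Rrm2 (1.98), Lig1 (1.73), Fen1 (1.68), Cdc6 (1.48), Gmnn (1.40), Orc4 (1.34) and Mcm10 (1.33) followed.

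Lower in late erythroblasts were 3 clamp loader subunits, Rfc3 (-1.38 ± 0.12), Rfc1 (-0.998 ± 0.10) and Rfc2 (-0.99 ± 0.16), with Orc3 (-1.12) and Pold1 (-0.33). Rfc3 stood at -0.63, -0.85 and -0.49 in late erythroblasts and 0.59, 0.77 and 0.81 in granulocytes, without overlap. Rfc4 went the other way (0.74), but was at -0.035 with normexp correction. Of the further replication genes, 20 were higher in late erythroblasts than in granulocytes and 7 lower on the percentile scale, led by Mcmbp (-2.92), an MCM-binding protein gene, Rrm2b (-2.73), Pold4 (-2.50) and Tk1 (2.38). Of the mitosis genes, 20 were higher and 0 lower, with a median of 1.43, led by Cenpf (3.61) and Mki67 (3.29). With spike-in scaling all 37 further replication genes were lower, as were 22 of the 24 mitosis genes (median -2.78). With normexp correction 15 of the further replication genes were higher and 13 lower. Macrophage markers summed to 7.84 to 14.1 in late erythroblasts and 73.2 to 74.4 in granulocytes, and their part in the result was not tested. No slide held both populations.

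The change along the red path (late erythroblasts minus MEP) differed from that along the granulocytic path (granulocytes minus GMP) for 31 members in an interaction test with limma. The red path's change was the higher for 27 and the lower for 4 (36.8% and 35.2% of 24663 features). The median was 0.77, against 0.05 for all features. With normexp correction the members' median of 0.28 was below the 0.66 of all features. With no filter on dim probes 0.77 for the members was below 1.26 for all features. On the spike-in scale 0 were higher and 43 lower, with medians of -4.15 for members and -4.87 for all features. Orc1 differed by 2.44 between late erythroblasts and MEP and by -1.88 between granulocytes and GMP, an interaction of 4.32 ± 0.32 (limma adjusted p = 2.34e-08). Rrm2 differed by 2.84 on the red path and -0.19 on the other (3.03 ± 0.16). Between late erythroblasts and MEP, on the percentile scale, Tyms differed by 1.62, Lig1 by 1.05, Gmnn by 0.94, Cdc6 by 0.75 and Fen1 by 0.65. For Mcm3, Pola2, Pole2 and Pold2 the interaction did not pass and was within 0.1 of 0: Pold2, for instance, differed by -2.65 on the red path and -2.73 on the granulocytic one, with an interaction of 0.08 (95% interval -0.46 to 0.63).

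On the spike-in scale 43 members had a called interaction below 0. On the percentile scale Rfc1, Rfc2, Rfc3 and Orc3 were the 4 called with the deeper change on the red path. Rfc3 differed by -1.97 on the red path and -0.89 on the granulocytic one (-1.07 ± 0.18; limma adjusted p = 8.34e-05), and Rfc2 by -1.92 on the red path and -0.88 on the other (-1.04 ± 0.25). Rfc4 and Rfc5, subunits of the same loader, did not share this: Rfc4 had an interaction of 1.26 ± 0.14 and Rfc5 one of 0.29 that did not pass. In the further replication genes, 22 were higher and 5 lower on the percentile scale, led by Tk1 (3.25), Rrm2b (-2.82), a p53-induced form of the small reductase subunit, Chtf18 (2.40) and Donson (2.40). Mitosis genes were higher for 23 of 24, with a median of 2.49, led by Nusap1 (4.10) and Mki67 (3.92). With spike-in scaling all 37 further replication genes (median -4.14) and 18 of the 24 mitosis genes (median -2.43) had an interaction below 0, and 0 of either list one above 0, among those called.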

How the data were processed

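Total RNA of 19 samples from 7 sorted mouse marrow populations was hybridised to 1 single-colour Agilent array each, 62543 spots with 1319 controls, on 5 slides. The authors deposited the scanner output of each array, made with Agilent Feature Extraction 11.5.1.1 under protocol GE1_1105_Oct12, per the file headers. Its values are intensity on a linear scale, already background-corrected by that program, per the file headers; the labels name the dye Cy5, while the files name their single channel green. The deposited series table holds, for those spots, the intensity after background subtraction. The array annotation is for mm9, and probes were renamed through RefSeq accessions of GRCm38.p6, which named 27235 of 55681 catalogue probes.

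From the files, log2 of the processed intensity minus the 75th percentile of the array was computed, outlier spots were left out, spots of a probe were averaged, and the brightest probe stood for a gene. limma 3.58.1 (R 4.3.3, lmFit and eBayes) was fitted over all 19 arrays with 7 group means and no covariate. Tests covered features detected (above background by the scanner program's flag) on all arrays of at least 1 group compared. A call needed a Benjamini-Hochberg adjusted p under 0.05, over all features, and detection on all arrays of the higher group; the interaction needed the adjusted p alone. Folds are 2 to the size of the log2 difference. The scripts were tested on simulated data. The number of arrays limits the precision. Figures were drawn with matplotlib 3.10.9.

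The members, the further lists and the rule for genes named were chosen with earlier results of these data known. The rule was to name, per comparison, the called member with the largest difference in each role, members against the majority, up to 4 further replication genes and up to 2 mitosis genes; other members are given for completeness. Alternatives were normexp correction, quantile normalization, a percentile over detected probes, spike-in scaling, the mean of probes, the deposited table, no filter, slide or replicate blocks, a fit on the arrays compared alone and leaving out each array. Normexp, with an offset of 50, used median signals, because the files hold no mean signal. One list of markers of other cells is not reported here.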

Additional observations from a re-analysis of the deposited data

Results flagged for a closer look

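The change along the red path, late erythroblasts minus MEP, differed from the change along the granulocytic path, granulocytes minus GMP, for 31 of the 44 replication genes by limma's interaction test, and each value below is the first change minus the second on the log2 scale. The red path's change was the higher for 27 members and the lower for 4, against 36.8% and 35.2% of the 24663 features tested. Calls in either direction were thus about as frequent over all features as among the members. On the spike-in scale 0 members were higher and 43 were lower, with medians of -4.15 for members and -4.87 for all features.

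Origin recognition and licensing genes had interactions for Orc1 (4.32), Orc6 (1.21), Orc4 (0.91), Orc2 (0.78), Orc3 (-0.42), Gmnn (2.01) and Cdc6 (1.60). In the helicase and its activators they were Mcm2 (1.13), Mcm7 (0.86), Mcm6 (0.75), Mcm4 (0.50), Mcm10 (1.79), Cdc45 (1.24), Gins1 (1.19) and Gins4 (1.03). Among polymerases and primase they were Pola1 (1.32), Prim1 (1.21), Prim2 (0.75) and Pole (0.75). At the clamp and its loader they were Rfc4 (1.26), Pcna (0.64), Rfc1 (-0.71), Rfc2 (-1.04) and Rfc3 (-1.07). Single-strand binding and fragment joining gave Rpa1 (1.62), Rpa2 (1.15), Fen1 (2.23) and Lig1 (2.06). The deoxynucleotide enzymes gave Rrm2 (3.03), Tyms (2.34) and Rrm1 (1.40). The red path compares arrays whose 75th percentile differed, 50.1 to 81.3 intensity units on erythroblast arrays and 266 to 607 on all others, and the part of this in the result was not tested.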

How the results depend on the processing

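The called direction of single members held in 3628 of 4043 comparisons with an alternative and kept its call, while 397 lost the call and 18 reversed. Leaving out 1 array made up 1451 of the 3628 and 72 of the 397. Where any of 3 scalings moved the median of all features by over 0.1, that shift was taken off first. Sign changes made by the shift are therefore not among the 18. With the shift kept, spike-in scaling had 0 members higher and 40 lower between early erythroblasts and MEP, against 30 and 8 on the percentile scale. Under every alternative, with the shift of all features taken off for 3 scalings (chosen after seeing the data), 11 of 38 calls between early erythroblasts and MEP held, 18 of 43 between granulocytes and GMP, 12 of 31 between late erythroblasts and granulocytes, 6 of 31 interactions and 0 in the other comparisons. The spike-in scale, whose replicates spread most, lost all 41 calls of CMP against LSK cells and all 44 of late against early erythroblasts in this form.

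Spike-in scaling gave 4 calls for CMP against LSK cells (median 1.18), 0 for MEP against CMP, 0 for GMP against CMP (-0.67), 0 for MEP against GMP (0.41) and 4 for granulocytes against GMP (-0.98). Its medians were -2.68 for early erythroblasts against MEP, -2.31 for late against early ones, -3.61 for late erythroblasts against granulocytes and -4.15 for the interaction. Normexp correction gave medians of 0.78 for CMP against LSK cells, -0.0499 for GMP against CMP, -0.23 for MEP against GMP, 0.21 for early erythroblasts against MEP, -1.29 for granulocytes against GMP, -0.0929 for late erythroblasts against granulocytes and 0.28 for the interaction, and 15 calls for MEP against CMP. For CMP against LSK cells, MEP against CMP, GMP against CMP, MEP against GMP, early erythroblasts against MEP, late against early erythroblasts and granulocytes against GMP, in that order, quantile normalization gave 0.57, -0.14 (2 calls), -0.16, -0.0340 (4 calls), 0.37, -0.93 and -1.21, and 0.55 for the interaction. In the same order the percentile over detected probes gave 0.48, -0.16 (2 calls), -0.13, -0.0423 (6 calls), 0.63, -0.93 and -1.09, with 0.74 for late erythroblasts against granulocytes and 0.65 for the interaction. With slide as a block the medians were 0.86 for CMP against LSK cells, -0.0299 for GMP against CMP and -1.46 for granulocytes against GMP, with 10 calls for MEP against GMP. The mean of probes gave -1.35 for granulocytes against GMP, no filter gave 2 calls for MEP against CMP, and a fit on the arrays compared alone gave 0 there and 6 for MEP against GMP. The cause of these changes was not tested.

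Replicate numbers are shared between groups. Of 19 same-numbered pairs, 6 correlated over 0.1 in their deviations from the group means (-0.52 to 0.48). Deviations within a group of 2 or 3 arrays depend on each other, so these values cannot show whether same-numbered samples were paired. The replicate block called 3 members for MEP against CMP, 2 for GMP against CMP and 14 for MEP against GMP.

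Reversed by normexp correction were, for early erythroblasts against MEP, Mcm4 (-0.30), Mcm5 (-0.29), Cdt1 (-0.29), Pold3 (-0.33) and Rpa2 (-0.12). For late erythroblasts against granulocytes they were Mcm6 (-0.41), Mcm7 (-0.15), Gins1 (-0.17), Prim2 (-0.16), Pole (-0.017), Pcna (-0.44) and Rfc4 (-0.035). In the interaction they were Mcm4 (-0.38), Mcm6 (-0.065), Mcm7 (-0.074), Pole (-0.10) and Pcna (-0.25). Quantile normalization less the shift reversed Pold1 between late erythroblasts and granulocytes (0.029).

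Leaving out 1 array gave 39 to 41 calls for CMP against LSK cells (medians 0.80 to 0.85), 1 to 4 for MEP against CMP (-0.29 to -0.26), 2 for GMP against CMP (-0.0043 without CMP replicate 1, up to 0.038) and 9 to 16 for MEP against GMP (-0.33 to -0.25). It gave 32 to 36 for early erythroblasts against MEP (0.76 to 0.84), 43 to 44 for late against early ones (-1.35 to -1.19), 41 to 43 for granulocytes against GMP (-1.43 to -1.38), 30 to 33 for late erythroblasts against granulocytes (0.53 to 0.64) and 31 to 32 interactions (0.75 to 0.88).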
